A study of Mus musculus with 9 samples.

Results

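The myeloid lineage transcription factors are DNA-binding proteins that set up and keep the gene programme of macrophages, monocytes and microglia. Their transcripts were followed in BV2 cells, an immortalized mouse microglial line, as the rows of the deposited table whose gene name is Spi1, Irf8, Irf5, Mef2a, Mef2c, Maf, Runx1, Cebpa or Cebpb. All 9 were found among 54532 genes, and all 9 passed the filter on low values described beside the first test. PU.1, the product of Spi1, opens enhancers in myeloid chromatin and binds them together with partners such as IRF8 and the C/EBP factors. RUNX1 acts earlier, when the blood lineages are founded. MEF2 and MAF factors join the network in mature macrophages and microglia.

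RNA was sequenced in 3 groups of 3 libraries. Control cells stayed in complete DMEM with 10% fetal bovine serum, and OGD (oxygen-glucose deprivation) cells were moved to low-glucose DMEM with 4% serum and 4% oxygen. The third group, OGD + A-485, was deprived in the same way and also treated with A-485, which inhibits the P300 acetyltransferase. A dose of 50 μM from the start of 24 h of OGD, described for experiments preceding the sequencing, is assumed for the sequenced cells. Cells of all groups belong to 1 cell line. Glucose, oxygen and serum changed together in OGD, so their effects cannot be told apart, and none of these libraries had A-485 without OGD. The labels do not say whether the libraries came from separate cultures, so the p-values measure the spread between these libraries, which may be technical. In bulk RNA, fewer cells of a kind and less RNA per cell cannot be told apart.

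Each library held between 12593250 and 16091038 reads on genes, and no replicates were identical. All 10 general myeloid markers checked, among them Cd68, Csf1r and Ptprc, could be tested, and 9 or 10 of them stood at 1 FPKM or more in each group. FPKM is a level per kilobase of gene, scaled by the authors for the size of the library. The summed level of these markers was 640 to 654 FPKM in the control libraries, 815 to 847 after OGD and 2986 to 3121 when A-485 was added. Lyz2 made up most of that last sum (mean 1698 FPKM), and without it, a choice made after its value was seen, the other 9 markers summed to 599.8 to 617 FPKM in control, 725 to 752 in OGD and 1328 to 1356 with A-485. The part of the marker level in the changes below was not tested. By contrast, only 3 of 10 microglia-enriched markers reached 1 FPKM in each group. Siglech had 0 reads in every library, Sall1 had at most 0.0117 FPKM in a library and P2ry12 stayed at group means of 0.0621, 0.0103 and 0.244 FPKM, so the label of a microglial line holds for the myeloid markers and not for these defining ones. The 27 markers of other cell types summed to 3.39 to 5.29 FPKM, and 9 of them had 0 reads in every library.

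Promoter sequences of the members came from RefSeq (GRCm38.p6), where 7 of the 9 had at least 1 window. Spi1 and Maf had no entry. The 250 bases before the start site are shown for Cebpa, Mef2c and Irf8, the 3 members whose windows held a TATA box, because the first pair moved in opposite directions with A-485 and Irf8 was among the members called above the control. Capitals mark every match to a motif searched. The Cebpa window lies at chr7:35119043-35119292 on the plus strand, the first of 3 Mef2c windows at chr13:83503784-83504033 on the plus strand, and the first of 2 Irf8 windows at chr8:120736108-120736357 on the plus strand.

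Cebpa: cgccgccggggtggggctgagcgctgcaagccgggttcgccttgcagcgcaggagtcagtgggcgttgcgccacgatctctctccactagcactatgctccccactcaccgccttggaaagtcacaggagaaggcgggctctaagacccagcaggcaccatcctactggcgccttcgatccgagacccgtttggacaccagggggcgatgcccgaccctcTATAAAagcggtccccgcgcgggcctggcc
Mef2c: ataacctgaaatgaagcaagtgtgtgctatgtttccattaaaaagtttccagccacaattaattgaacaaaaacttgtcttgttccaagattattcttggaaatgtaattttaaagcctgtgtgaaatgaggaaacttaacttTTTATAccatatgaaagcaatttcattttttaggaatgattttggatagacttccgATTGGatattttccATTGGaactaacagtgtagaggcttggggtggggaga
Irf8: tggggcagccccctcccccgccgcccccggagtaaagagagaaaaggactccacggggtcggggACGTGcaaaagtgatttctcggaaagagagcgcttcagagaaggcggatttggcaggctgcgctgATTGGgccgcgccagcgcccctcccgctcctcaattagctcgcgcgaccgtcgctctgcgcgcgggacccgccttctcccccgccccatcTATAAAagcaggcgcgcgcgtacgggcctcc

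The motifs were searched on both strands, with overlaps between motifs allowed. They were the PU.1 box GAGGAAGT, the ETS core AGGAAGT which it contains, the ETS-IRF composite GGAANNGAA, the IRF element GAAANNGAA, the C/EBP element TTGCNNAA, the MEF2 element TATTTNTAG, the MAF element TGCTGA and the RUNX element TGTGGT, besides AP-1 (TGANTCA), the hypoxia response core (ACGTG), CRE (TGACGTCA), NF-κB (GGGANTTTC), the CCAAT box and the TATA box TATAAA. In the windows shown, the TATA letters began at -30 in Cebpa and at -31 in Irf8, and their reverse TTTATA at -107 in Mef2c. The second Mef2c window held TTTATA at -22. Such a match is in 12.4% of 32851 windows of all genes. In the windows shown, Mef2c carried the reverse CCAAT box at -51 and -37, and Irf8 at -121, against 33.8% of all windows. The second Mef2c window had it at -83, and both Runx1 windows also held CCAAT boxes. The hypoxia response core was present in Irf8 at -186 and in both Runx1 windows, and 16.6% of all windows hold it. In the second Runx1 window, at chr16:92697330-92697579 on the minus strand, the ETS-IRF composite was present at -55 and -15, a motif that 6.99% of all windows hold. The third Mef2c window held an AP-1 match at -137 and a MAF match at -104, and the second Irf8 window a MAF match at -157. AP-1 matches are in 6.75% of all windows and MAF matches in 16.1%. The windows of Irf5, Mef2a and Cebpb held none of the 14 motifs, which says only that these letters are not in the windows.

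Without OGD, the 9 factors covered a wide range of levels, in an order that also depends on the gene lengths used for FPKM. Cebpb was the highest with 73.8 ± 4.95 FPKM (SD, n = 3), followed by Spi1 with 43.9 ± 0.852, Irf5 with 29.9 ± 2.43, Irf8 with 16.7 ± 0.568 and Mef2c with 12.9 ± 0.161. Mef2a stood at 7.17 ± 0.367, Runx1 at 5.65 ± 0.366, Cebpa at 3.05 ± 0.453 and Maf at 0.969 ± 0.0429 FPKM. In the control group no neighbours in this order overlapped between libraries. Among 14596 protein-coding genes above 0, Cebpb was at the 96.4th percentile, Spi1 at the 92.8th and Maf at the 32nd. In OGD the order was the same, with overlapping libraries for Spi1 and Irf5 and for Cebpa and Maf. With A-485, Spi1 came first at 97.9 ± 6.40 FPKM and overlapped Cebpb at 86.2 ± 10.2. Maf moved from the lowest place to the fifth, at 8.86 ± 0.618 FPKM and the 63.5th percentile, where its libraries overlapped those of Mef2a. Mef2c fell to the seventh place at 7.30 ± 0.252 FPKM and overlapped Cebpa, and Runx1 became the lowest member.

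**Figure D1:**
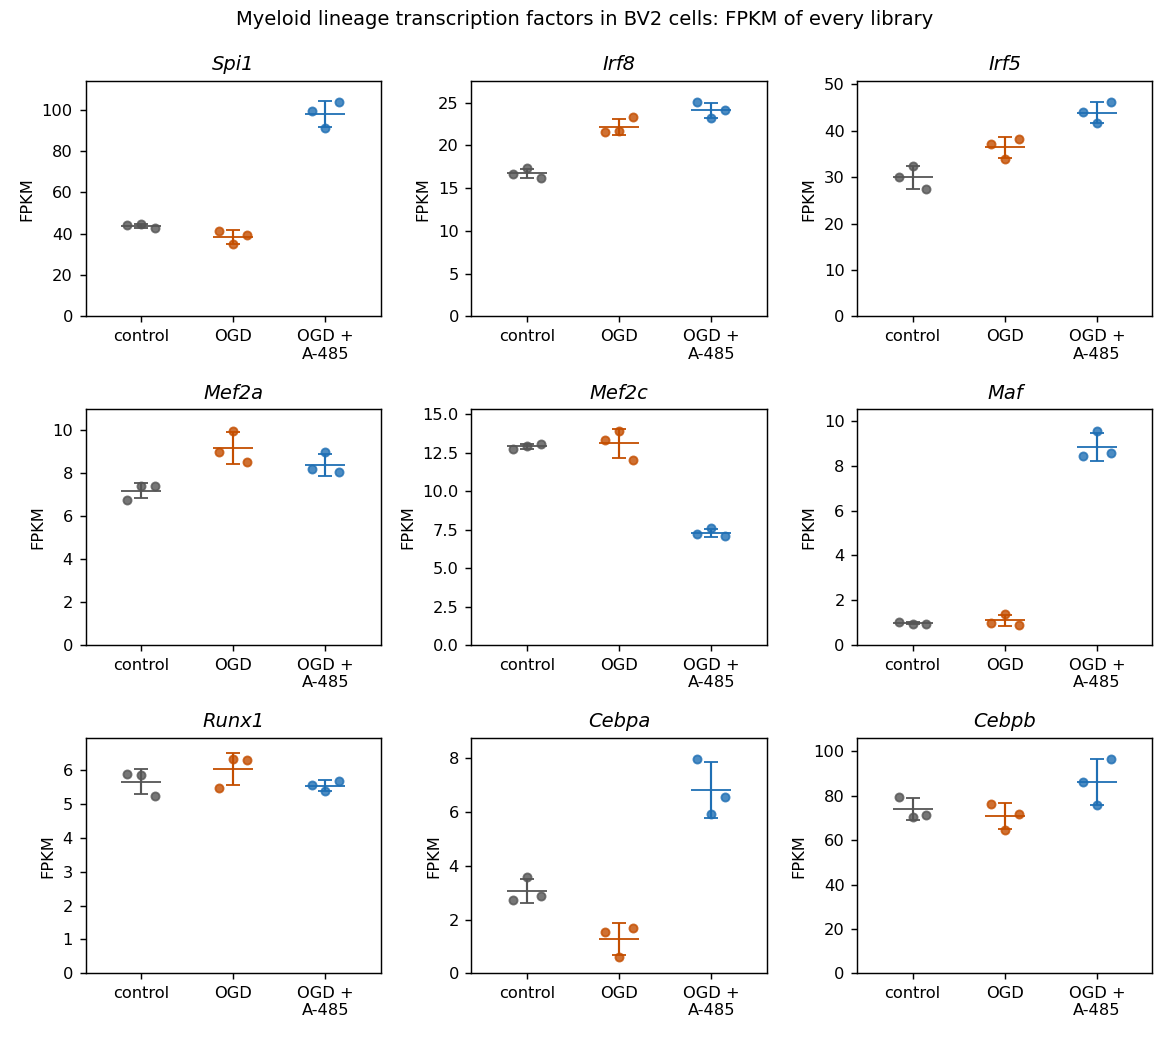
FPKM of each factor (y axis, from 0, a scale of its own in each panel) by group (x axis); points are libraries, long bars group means and error bars the SD of 3 libraries. Spi1, Maf and Cebpa stand apart upwards and Mef2c downwards in the OGD + A-485 group, while Runx1 overlaps across all groups.

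Changes with OGD, with the inhibitor, and between inhibitor and control were tested with limma. It was run on log2(FPKM + 0.1) of every gene whose mean reached 0.2 FPKM (16123 genes). A gene was called at p under 0.01 and a log2 fold change beyond 0.5 in either direction. These are the thresholds of the study, which applied them to DESeq2, so its calls and the calls here may differ. The comparisons share libraries (OGD is in the first and second, OGD + A-485 in the second and last), so their values are not independent. In OGD against control, 0 of 9 factors were called higher and 1 lower, where 11.2% of all genes tested were called higher and 9.81% lower, so the share of members was near that of all genes. At an adjusted p under 0.05 with no size limit, limma gave 5 of 9 here, 6 in A-485 against OGD and 7 in A-485 against control, where 45.3%, 49.8% and 56.6% of all genes passed. The libraries of both groups did not overlap for 5 of 9, against 55.4% of all genes. In OGD + A-485 against OGD, 3 were called higher and 1 lower, with 12.2% and 13.4% of all genes, and 5 of 9 did not overlap, with 56.8%. In OGD + A-485 against control, 5 were called higher and 1 lower, with 17% and 16.6% of all genes, and 7 of 9 did not overlap, with 63.8%. The median log2 fold change of the 9 factors was 0.09, 0.27 and 0.53 in these comparisons, and that of all genes 0.01, 0.01 and 0.02. With libraries scaled to their totals, the last comparison had 2253 genes called higher and 3350 lower in place of 2747 and 2684.

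**Figure D2:**
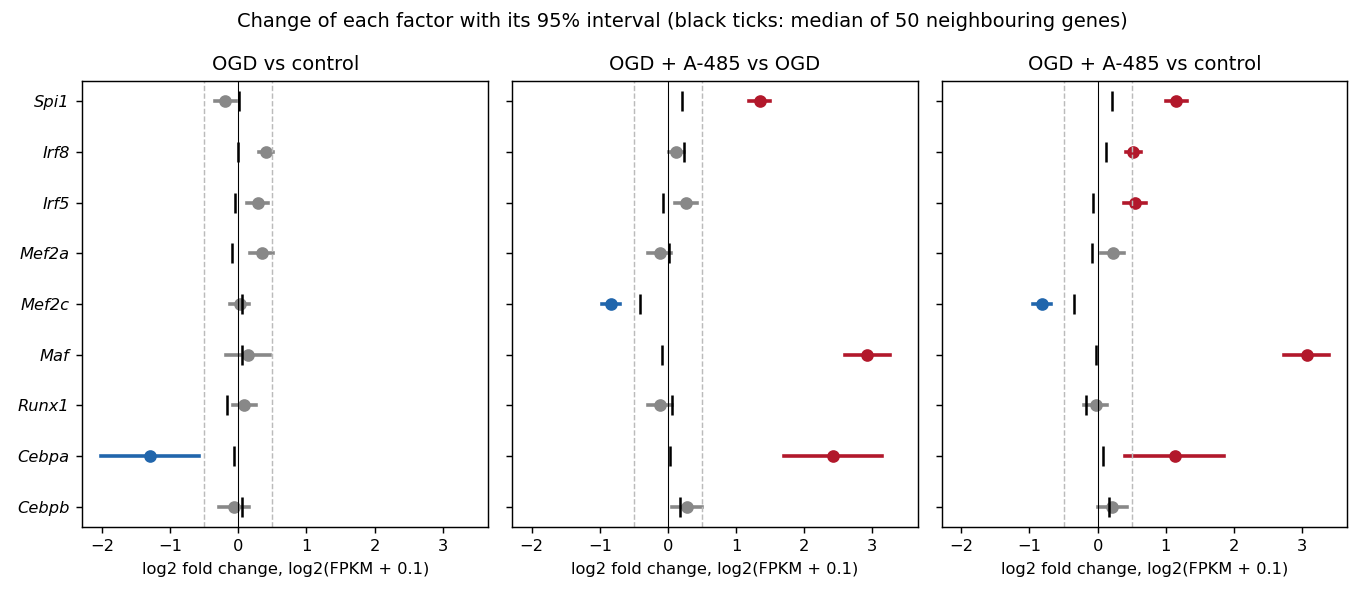
Change of each factor as log2 fold change of log2(FPKM + 0.1) (x axis) in the 3 comparisons, with 95% intervals from limma; red and blue are called higher and lower, grey is not called, dashed lines mark 0.5 in either direction and black ticks the median of the 50 nearest genes. With A-485 against OGD, Maf (2.92), Cebpa (2.43) and Spi1 (1.35) lie to the right and Mef2c (-0.83) to the left.

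Spi1 (ENSMUSG00000002111, chr2:91082390-91115756, plus strand, GRCm38) encodes PU.1, the ETS factor without which macrophages and microglia do not form. Its FPKM was 44.1, 44.6 and 42.9 in the control libraries, 41.2, 34.8 and 39.5 in OGD, and 99.3, 90.9 and 104 with A-485. The OGD libraries all lay below the control libraries and the OGD + A-485 libraries far above both. Spi1 was 2.54 times as high with A-485 as with OGD alone, a log2 fold change of 1.35 (95% interval 1.19 to 1.501, limma adjusted p 9.01e-07). Against control it was 2.23 times as high (log2 1.15, limma adjusted p 1.14e-06). The difference between OGD and control was -0.19 (interval -0.35 to -0.03, limma adjusted p 0.0487), below the size threshold. Over the alternatives its limma adjusted p ran from 0.0128 to 0.132, and without OGD replicate 2 the difference was -0.12. The 50 nearest genes had a median change of 0.21 with A-485 against OGD. Spib and Spic, the closest relatives of Spi1, had group means of at most 0.0119 FPKM, so Spi1 made up between 99.96% and 99.99% of the sum of these 3 genes.

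Irf8 (ENSMUSG00000041515, chr8:120736358-120756694, plus strand) encodes a partner of PU.1 that microglia need to develop and to react. It had 16.6, 17.3 and 16.2 FPKM in control, 21.5, 21.7 and 23.3 in OGD, and 25.0, 23.3 and 24.1 with A-485. The control libraries were the lowest 3, and the OGD and OGD + A-485 libraries overlapped. The rise with OGD was 1.33 times (log2 0.40, interval 0.30 to 0.51, limma adjusted p 0.000143), which did not reach the size needed for a call. With A-485 against control, Irf8 was called higher at a log2 fold change of 0.53 (limma adjusted p 1.5e-05), just past the limit of 0.5. The change of A-485 against OGD was 0.12 (interval 0.01 to 0.23, limma adjusted p 0.0603).

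Irf5 (ENSMUSG00000029771, chr6:29526625-29541871, plus strand) carries signals from Toll-like receptors to inflammatory cytokine genes. Its FPKM was 30.1, 32.3 and 27.4 in control, 37.1, 33.8 and 38.2 in OGD, and 44.03, 41.6 and 46.1 with A-485. The groups formed 3 steps without overlap. The step from control to OGD was 0.28 on the log2 scale (interval 0.12 to 0.44, limma adjusted p 0.0105) and that from OGD to OGD + A-485 was 0.27 (interval 0.11 to 0.43, limma adjusted p 0.0115), both under the size threshold. Over both steps Irf5 was called higher, 1.47 times the control (log2 0.55, limma adjusted p 0.00015). This call and that of Irf8 were lost under quantile normalization and with library totals. The call of Irf5 was also lost without control replicate 3 (log2 0.49), and that of Irf8 without OGD + A-485 replicate 1 (log2 0.4996) or with the median of its 50 nearest genes removed (log2 0.40). Exons of Irf5 share 411 bases with Tnpo3 on the other strand, at 13.2, 11.5 and 10.4 FPKM in the 3 groups, and no source used here says whether reads were counted by strand.

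Cebpa (ENSMUSG00000034957, chr7:35119293-35121928, plus strand, a single exon) directs progenitors into the granulocyte and monocyte lineages. It was the sole member called in OGD against control. Its FPKM was 2.73, 3.57 and 2.86 in control, 1.52, 0.612 and 1.70 in OGD, and 7.94, 5.91 and 6.55 with A-485. The 3 groups did not overlap, and OGD replicate 2 was the lowest of all 9 libraries. These are few reads beside most other members, with 96 to 134 in each control library, 21 to 63 after OGD and 246 to 306 when A-485 was present. OGD lowered Cebpa to 0.419 of the control, a log2 fold change of -1.30 (interval -2.02 to -0.57, limma adjusted p 0.00929). Without OGD replicate 2 the change was -0.87, still called. The call was lost without control replicate 2 (p 0.013 from limma) and when only both groups were fitted (p 0.0141 from limma).

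With A-485, Cebpa was 5.33 times as high as in OGD (log2 2.43, interval 1.70 to 3.15, limma adjusted p 0.00023). Without OGD replicate 2 this change was 2.005. Against control it was 2.23 times as high (log2 1.13, interval 0.41 to 1.85, limma adjusted p 0.0138). That last call was lost in 8 of 21 alternatives, each with the change upwards, among them the 6 fits that left out 1 control or 1 OGD + A-485 library.

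Cebpb (ENSMUSG00000056501, chr2:167688915-167690418, plus strand, a single exon) is the C/EBP factor of acute-phase and inflammatory responses in mature cells. It had 79.5, 70.6 and 71.4 FPKM in control, 76.4, 64.5 and 71.8 in OGD, and 86.3, 75.9 and 96.3 with A-485. All groups overlapped. The changes were -0.06 with OGD (interval -0.28 to 0.16), 0.28 for A-485 against OGD (interval 0.06 to 0.50, limma adjusted p 0.0371) and 0.22 for A-485 against control (interval 0.0012 to 0.43), none of them called. The Cebpb exon shares 312 bases with Tmem189 on the other strand, which stood at 53.6 FPKM in control, 101 in OGD and 107 with A-485. The part of Tmem189 in the Cebpb value was not tested.

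Since FPKM is per length, levels of different genes were set side by side within a library. The length used covers all annotated exons of a gene, 15715 bases for Mef2c with 31 transcripts and 1504 for Cebpb with 1. Where the transcripts present are shorter than this, FPKM is too low. The order of genes, the size of a ratio and the family shares therefore depend on the annotation. The fixed length cancels when a ratio is compared between groups. The ratio of Cebpb to Cebpa was 29.2, 19.8 and 25.0 in control, 50.2, 105 and 42.2 in OGD, and 10.9, 12.9 and 14.7 with A-485. No groups overlapped in this ratio. Each difference had a two-sided exact permutation p of 0.1, the smallest that 3 against 3 libraries can give. Cebpe, a C/EBP factor of late granulocyte development, went from 7.15 ± 1.01 in control and 8.54 ± 1.56 in OGD to 43.1 ± 0.764 with A-485. Its share of the summed FPKM of Cebpa, Cebpb, Cebpd, Cebpe and Cebpg was 7.03% in control, 8.97% in OGD and 28.2% with A-485. The share of Cebpb was 72.3%, 74.8% and 56.2%, and that of Cebpa 3.003%, 1.32% and 4.45%. Cebpd, an acute-phase relative, was called lower with OGD (7.73 to 4.85 FPKM) and higher with A-485 against OGD (8.33 FPKM).

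Runx1 (ENSMUSG00000022952, chr16:92601466-92826149, minus strand) encodes the DNA-binding partner of CBFβ in the founding of blood cells. It had 5.88, 5.84 and 5.22 FPKM in control, 5.47, 6.30 and 6.29 in OGD, and 5.55, 5.36 and 5.67 with A-485. The libraries of all groups overlapped. The changes were 0.09 with OGD (interval -0.08 to 0.26), -0.12 for A-485 against OGD (interval -0.29 to 0.05) and -0.03 for A-485 against control (interval -0.20 to 0.14), so no interval reached the size threshold. Runx2, better known from bone, fell from 3.43 ± 0.148 FPKM in control and 2.52 ± 0.128 in OGD to 0.539 ± 0.0470 with A-485, a log2 fold change of -2.03 against OGD (limma adjusted p 9.03e-07). Runx3 was the most abundant of the family at 13.7, 17.6 and 22.2 FPKM, and its share of the family sum was 60.1%, 67.3% and 78.5%. Cbfb, the common partner, was called lower with OGD (45.3 to 24.3 FPKM) and higher with A-485 against OGD (36.2 FPKM).

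Mef2c (ENSMUSG00000005583, chr13:83504034-83667080, plus strand) encodes a MADS-box factor that is prominent in microglia and is held to restrain their inflammatory response. It was the sole member called lower with A-485. Its FPKM was 12.7, 13.0 and 13.1 in control, 13.4, 13.9 and 12.04 in OGD, and 7.21, 7.58 and 7.10 with A-485. The control and OGD libraries overlapped and the OGD + A-485 libraries all lay below them. Mef2c was at 0.557 of its OGD level with A-485, a log2 fold change of -0.83 (interval -0.97 to -0.70, limma adjusted p 5.53e-06). Against control the change was -0.82 (limma adjusted p 3.71e-06), and with OGD alone it was 0.02 (interval -0.11 to 0.15). The 50 nearest genes on chromosome 13, which reached up to 9.54 Mb away, also had lower values with A-485. Their median change was -0.41 against OGD and -0.35 against control. With this median removed the change of Mef2c was -0.42 and -0.46, and neither reached the size threshold.

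Mef2a (ENSMUSG00000030557, chr7:67231163-67372858, minus strand), a relative with the same DNA-binding domain, had 6.75, 7.40 and 7.37 FPKM in control, 8.95, 9.94 and 8.48 in OGD, and 8.14, 8.95 and 8.01 with A-485. Both OGD groups lay above the control and overlapped each other. The rise with OGD was 1.27 times (log2 0.34, interval 0.17 to 0.51, limma adjusted p 0.00501), under the size threshold, and the change of A-485 against OGD was -0.12 (interval -0.29 to 0.05). Exons of Mef2a share 302 bases with Lysmd4 on the other strand, at 0.915, 1.47 and 1.44 FPKM in the 3 groups. The ratio of Mef2c to Mef2a was 1.89, 1.75 and 1.77 in control, 1.49, 1.402 and 1.42 in OGD, and 0.886, 0.847 and 0.887 with A-485. It stepped down without overlap, with exact permutation p of 0.1 each. Mef2d remained the most abundant MEF2 factor, with 62.0%, 60.8% and 70.6% of the family sum, while the share of Mef2c was 23.97%, 22.2% and 12.8%.

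Maf (ENSMUSG00000055435, chr8:115682942-115707794, minus strand) encodes c-MAF, a large MAF factor of tissue macrophages and of Il10 transcription, and had the largest change of the 9. Its FPKM was 1.02, 0.937 and 0.952 in control, 1.001, 1.38 and 0.906 in OGD, and 8.42, 9.56 and 8.58 with A-485. The control and OGD libraries overlapped, with OGD replicate 2 the highest of them, and the OGD + A-485 libraries lay far above. These values came from 105 to 148 reads per library in control and OGD and from 1014 to 1245 with A-485. Maf was 8.09 times as high with A-485 as in OGD (log2 2.92, interval 2.59 to 3.25, limma adjusted p 8.09e-07) and 9.14 times the control (log2 3.07, limma adjusted p 3.11e-07). Of the genes tested, 0.937% had a larger log2 fold change with A-485 against OGD. With OGD alone the change was 0.14 (interval -0.19 to 0.47). The 50 nearest genes had a median of -0.08 with A-485 against OGD. Exons of Maf share 440 bases with Gm15655 on the other strand, which was listed at 0.

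Mafa and Nrl, also large MAF genes, had group means of at most 0.162 FPKM. Among the MAF partners, Bach1, a repressor, was called higher with A-485 against OGD (12.1 to 20.3 FPKM), and the small MAF gene Maff was called higher with OGD (11.1 to 18.5 FPKM).

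**Figure D3:**
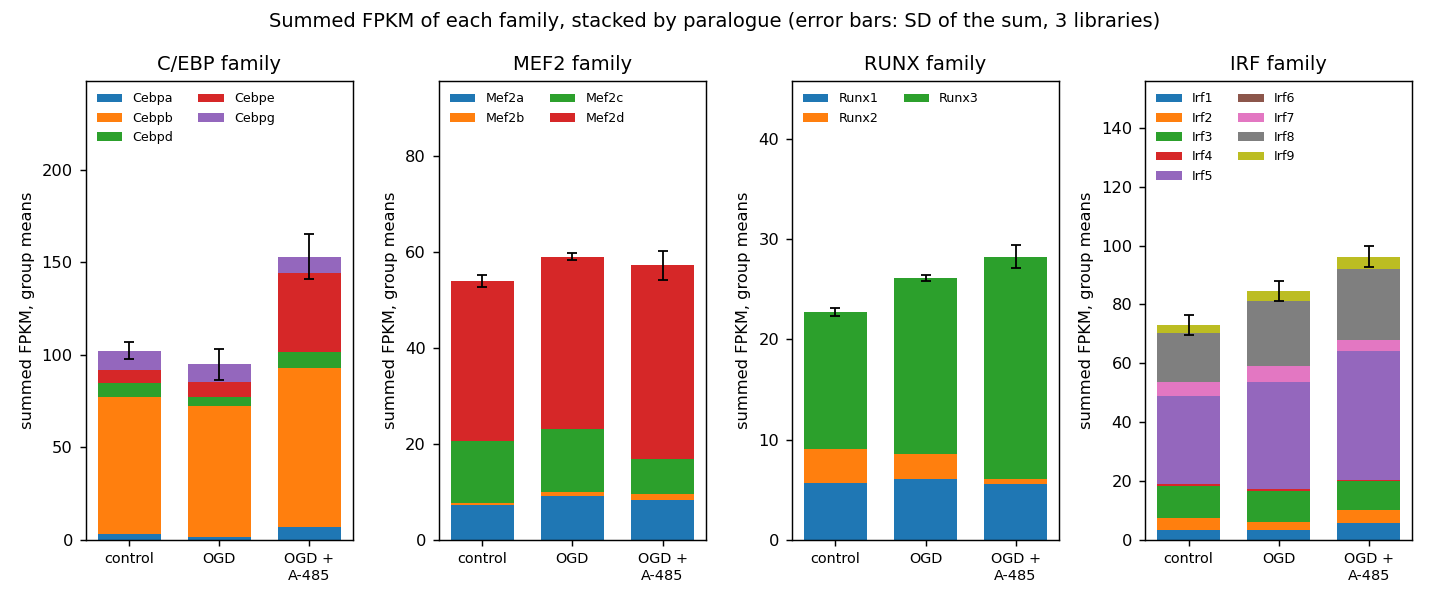
Summed FPKM of the C/EBP, MEF2, RUNX and IRF families (y axis, from 0) in the 3 groups (x axis), with each paralogue as a stacked segment of its group mean and error bars for the SD of the sum over 3 libraries. The C/EBP sum goes from 94.8 FPKM in OGD to 153 with A-485, where Cebpe takes 28.2%, and Irf5 takes the largest share of the IRF sum in every group, from 40.9% to 45.6%.

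Further factors and partners were read from lists of 82 genes, of which 64 passed the filter. In OGD against control 10 were called higher and 13 lower (median log2 fold change -0.15), with 11.2% and 9.81% of all genes tested. In A-485 against OGD they were 20 and 13 (median 0.21), with 12.2% and 13.4% of all genes. In A-485 against control they were 18 and 14 (median 0.11), with 17% and 16.6% of all genes. The MEF2 list had 4 of 6 genes called higher with OGD and 0 lower (median 0.76). They were Mef2b and the class IIa deacetylases Hdac5, Hdac7 and Hdac9, which bind and repress MEF2 factors. Hdac7 rose most of all listed genes with OGD, from 1.77 ± 0.110 to 7.99 ± 0.313 FPKM (log2 2.12, limma adjusted p 7.91e-07). It fell with A-485 to 2.33 ± 0.226 FPKM (log2 -1.74, limma adjusted p 1e-06), and Hdac9 was called lower there too (2.52 to 1.12 FPKM).

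Where 11.2% of all genes were called higher with OGD and 9.81% lower, the IRF list had 0 of 10 higher and 4 lower (median -0.46). These were Irf2, Batf, Batf3 and Irf2bp1, a co-repressor of IRF2 that went from 11.9 ± 0.437 to 5.63 ± 0.836 FPKM (log2 -1.08, limma adjusted p 4.28e-05). With A-485 against OGD, Irf1, Irf2, Irf2bp1 and Irf2bp2 were called higher, and Batf and Batf3, the AP-1 partners of IRF proteins, lower. Batf stood at 4.12 ± 0.418 FPKM in control and 1.14 ± 0.306 with A-485 (log2 -1.80, limma adjusted p 3.2e-05). Irf3 and Irf9 had group means of 9.75 to 10.7 and of 2.82 to 4.12 FPKM, and Irf5 had the largest share of the family sum in every group, from 40.9% to 45.6%. The ratio of Irf8 to Irf5 was 0.560 ± 0.0279, 0.610 ± 0.0304 and 0.550 ± 0.0237 in the 3 groups. It was lower with A-485 than in OGD by 0.15 on the log2 scale, with no overlap between libraries (0.523 to 0.568 against 0.581 to 0.642, exact permutation p 0.1, the smallest that 3 against 3 can give), while control overlapped with OGD (p 0.2) and with OGD + A-485 (p 0.8) in the same exact test.

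Of the ETS list 1 of 12 tested genes was called higher with OGD, Etv3, and 0 lower (median -0.17). Of all genes, 11.2% were called higher and 9.81% lower there. With A-485 against OGD, Elf1, Ets2, Etv6 and Fli1 were called higher and Elk3 lower (12.3 to 5.69 FPKM). In the RUNX list the co-repressor Tle1 fell with OGD from 2.34 ± 0.0876 to 1.11 ± 0.0269 FPKM (log2 -1.01, limma adjusted p 0.000656) and was 0.575 ± 0.116 FPKM with A-485. Among other identity factors, Id2, an inhibitor of helix-loop-helix proteins, rose with OGD from 6.74 ± 0.632 to 25.5 ± 3.67 FPKM (log2 1.90, limma adjusted p 3.7e-06). Tal1, a helix-loop-helix factor of early blood cells, fell from 5.31 ± 0.112 to 2.76 ± 0.0950 FPKM (log2 -0.92, limma adjusted p 1.14e-05) and stood at 5.42 FPKM with A-485. The Krüppel-like factors Klf2 and Klf4 were called higher with A-485 against OGD, at 1.60 to 6.44 and 0.18 to 0.91 FPKM.

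Myeloid genes known to carry sites for PU.1, IRF8, RUNX1 or C/EBP factors were described by a list of 40, of which 37 passed the filter. No binding was measured here. With OGD against control 13 were called higher and 1 lower, with a median log2 fold change of 0.33. With A-485 against OGD 29 were called higher and 2 lower, with a median of 0.86, and against control 33 and 2, with a median of 1.32. All genes tested had 11.2% higher and 9.81% lower with OGD, 12.2% and 13.4% with A-485 against OGD, and 17% and 16.6% against control. Lyz2, the gene of macrophage lysozyme, went from 39.8 ± 1.94 FPKM in control and 93.3 ± 2.91 in OGD to 1698 ± 72.8 with A-485, 18.2 times the OGD level (log2 4.18, limma adjusted p 1.17e-09). Cybb, the catalytic subunit of the phagocyte oxidase, rose from 9.67 ± 0.584 to 83.5 ± 2.62 FPKM (log2 3.10), and the scavenger receptor Msr1 from 0.995 ± 0.158 to 8.94 ± 0.725 FPKM (log2 3.05).

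Csf1r, the receptor of the growth factor that macrophages depend on, was called higher in both steps, at 24.2 FPKM in control, 44.6 in OGD and 131 with A-485. Spp1 (osteopontin), with 1828 FPKM in control and 3034 ± 224 in OGD, fell to 1055 ± 60.6 with A-485 (log2 -1.52, limma adjusted p 9.9e-07). Itgal was the other gene called lower there, and Fcgr1 the one called lower with OGD, from 16.0 to 8.69 FPKM. Fcgr1 was at 40.1 FPKM with A-485.

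**Figure D4:**
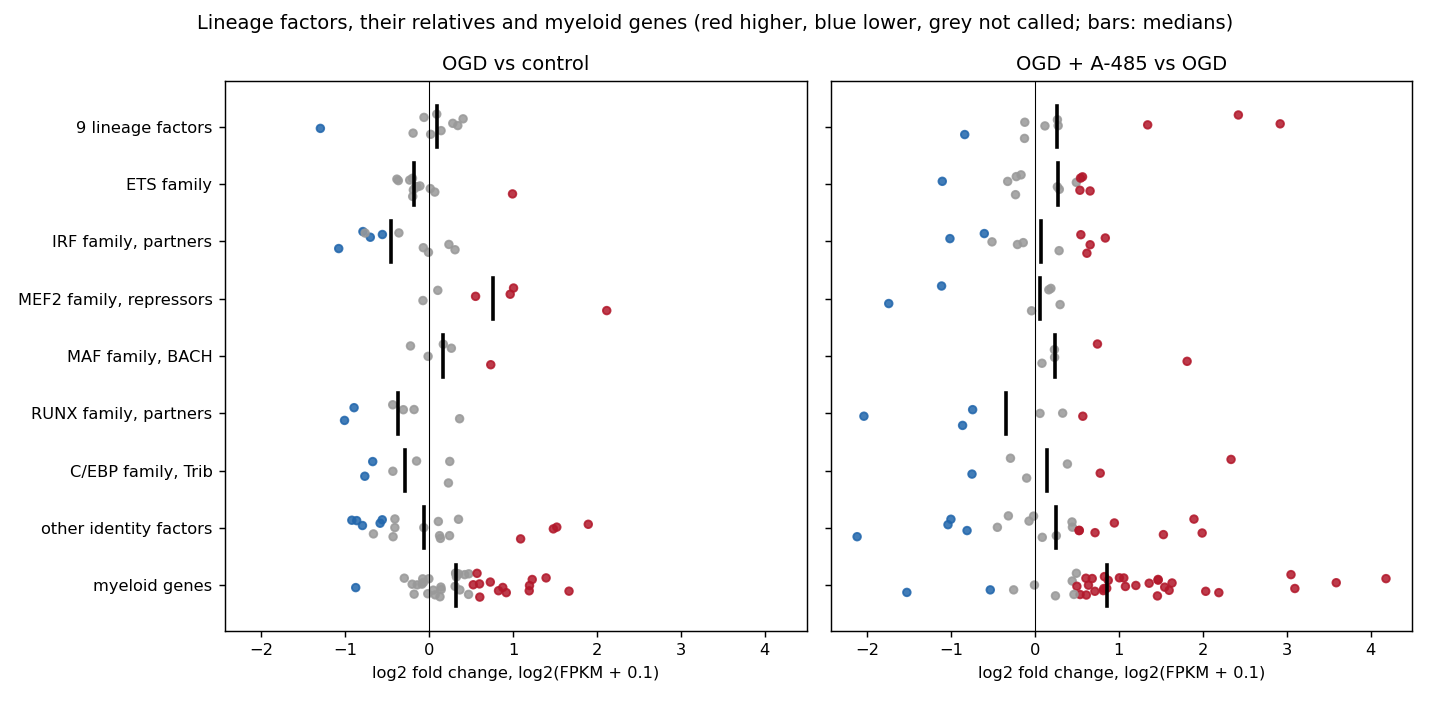
Log2 fold changes of log2(FPKM + 0.1) (x axis) of the 9 lineage factors and of the tested genes of each list (rows), for OGD against control and OGD + A-485 against OGD; points are genes, red and blue called higher and lower, grey not called, and black bars are medians. The median of the myeloid genes lies at 0.33 with OGD and at 0.86 with A-485, while the factor lists together hold calls in both directions.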

How the data were processed

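RNA of BV2 cells was sequenced from libraries made with an mRNA kit, in groups taken from the sample labels. According to the study's methods and the labels, the authors removed low-quality reads, counted reads on genes with featureCounts and deposited FPKM computed from gene length and read count. The builds named in the submitters' processing notes are GRCm38 and mm10. The aligner, the annotation release and the use of strand are not given in the sources used here. Of 54409 identifiers shared with GENCODE M21, 98.3% had the same coordinates. The product of FPKM, gene length and the authors' divisor of the library was a whole number of reads (within 0.01) for 100% of values above 0. That divisor already holds median-of-ratios factors, so rescaling by these moved nothing and shows no stability. Fold changes on the log2(FPKM + 0.1) scale understate those of low genes.

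limma 3.58.1 in R 4.3.3 was used with a mean per group over all 9 libraries, a trended prior variance and Benjamini-Hochberg adjustment over 16123 genes. Exact permutation tests, promoter searches and plots used Python 3.11.15 (scipy 1.17.1, pandas 2.3.3, matplotlib 3.10.9, numpy 2.4.6). Changes around a gene are medians of the 50 nearest genes with at least 1 FPKM. These genes span megabases: the furthest lay 2.22 Mb from Irf8 and 12.8 Mb from Mef2a, the least and the most among the members. The members, gene lists and motifs were chosen with earlier results of these data known. Genes named beside the members are, for each comparison, the 3 listed genes that rose most and the 3 that fell most (called, at least 1 FPKM, no overlap), the 3 most correlated with each member, genes of the same family or sharing exons, and list members named after their values were seen. Ddit3, with more than 1 entry in the table, was left out of list counts. A ratio and some listed genes that the rule would name are not reported here. In a test on simulated data for OGD against control with 15782 genes, the fit called 76% of 2-fold changes, 84.7% of 4-fold changes and 0.642% of unchanged genes. There 100 genes changed 2-fold and 98 changed 4-fold, while 45.3% of genes passed a limma adjusted p under 0.05 in the data. The simulated spread followed a fixed formula and was not estimated from these libraries, so the rates may differ in the data.

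Alternatives were other pseudocounts, filters, scalings and prior variances, fits of the compared groups, the replicate number as a block, an adjusted p-value, limma-voom on reads recovered from FPKM, removal of the neighbours' median, and each library left out. For the lists, both scalings and the fit without OGD replicate 2 were added once the values were known.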

Additional observations from a re-analysis of the deposited data

How the results depend on the processing

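Of 594 values of the 9 factors under alternatives, 558 kept direction and side of the threshold, 19 lost a call, 7 gained one and 10 changed sign. Part of the values kept were fixed by construction. The median-of-ratios rescaling moved nothing, and leaving out a library of the group not compared cannot move a fold change. At an adjusted p under 0.05 with no size limit, 3 factors were higher and 2 lower in OGD against control (22.5% and 22.8% of all genes), and 5 were higher and 1 lower in A-485 against OGD (25.1% and 24.7%). With only the groups compared in the fit, 0 were lower in OGD against control. With the neighbours' median removed, 0 were lower in either comparison of A-485, since Mef2c no longer reached the size threshold. In A-485 against control, 3 were higher under quantile normalization and 2 with library totals. Leaving out each library gave 0 to 1 lower in OGD against control (0 without control replicate 2) and 3 to 5 higher in A-485 against control (3 without control replicate 3 or OGD + A-485 replicate 1). Other counts of called factors stayed within 1.5 times under the alternatives run.

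Changes of sign concerned values that were not called. They were Mef2c with OGD (-0.031 with library totals and -0.039 with the neighbours' median removed, and -0.026 to 0.078 with a library left out, lowest without OGD replicate 2), Maf with OGD (-0.023 under quantile normalization, and -0.021 without OGD replicate 2 to 0.257 without OGD replicate 3), Cebpb with OGD (-0.117 to 0.0056 with a library left out, highest without OGD replicate 2), Irf8 in A-485 against OGD (-0.11 with the neighbours' median removed) and Runx1 in A-485 against control (0.0065 under quantile normalization, -0.082 to 0.0018 with a library left out, highest without control replicate 1, and 0.145 with the neighbours' median removed). The cause was not tested.

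With a pseudocount of 1 FPKM, the log2 differences of ratios shrank to -1.53 for Cebpb to Cebpa in A-485 against OGD, and to -0.65 and -0.94 for Mef2c to Mef2a in A-485 against OGD and control, by construction, since it weighs most on the lower gene. The replicate numbers did not pair the libraries (mean correlation of deviations -0.0023 for the same number and 0.0012 for different numbers). With the replicate number as a block, 0 factors were called higher and 1 lower in OGD against control, 3 and 1 in A-485 against OGD, and 5 and 1 in A-485 against control. The list counts moved by less than 1.5 times under both scalings and without OGD replicate 2, with 26 to 31 myeloid genes higher in A-485 against OGD. Low read numbers limit Cebpa and Maf most.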

Other observations

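Genes with profiles most like those of the members over the 9 libraries were read by Pearson r of log2(FPKM + 0.1) among 11898 genes of at least 1 FPKM. The libraries share 3 group means, so r describes the order of the groups and carries no p. Spi1 was closest to Cfp (properdin, r = 0.999), a complement component at 48.9, 43.9 and 100.4 FPKM in the 3 groups (control first, A-485 last), and to the inhibitory receptor Cd300a (r = 0.997), at 7.72, 6.26 and 29.1 FPKM. Kctd12 came next (r = 0.995). Maf was closest to the G protein subunit Gnaq (r = 0.998), to Gm6377 (r = 0.998), which went from 0.597 and 0.725 to 37.1 FPKM, and to Gyg (r = 0.997), the primer of glycogen synthesis, at 15.5, 16.6 and 50.4 FPKM.

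Irf8 was closest to the elongation factor Eef2 (r = 0.996), the scavenger receptor Stab1 (r = 0.995) and Fam102a (r = 0.995). For Irf5 they were Cul4a, Efhd2 and Dctn3 (r from 0.984 to 0.986). Mef2c was closest to the ubiquitin ligase Arih1 (r = 0.996), Strbp (r = 0.995) and Dzip3 (r = 0.995), which had 11.3, 12.4 and 5.56 FPKM. Mef2a was closest to Ttc17, Gm7072 and Nfat5 (r from 0.966 to 0.970), and Nfat5, the osmotic stress factor, stood at 14.9, 19.3 and 17.3 FPKM. Cebpa was closest to Rab8a, Sec61b and Dynll2 (r from 0.992 to 0.994), all lowest in OGD and highest with A-485. Cebpb had weaker matches in Itgb1bp1, Gm12183 and Kcnk6 (r from 0.946 to 0.956), and Runx1 in Gm47435, Prox2 and Hps4 (r from 0.905 to 0.953).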
